A study of Homo sapiens with 8 samples.

Results

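The miR-146 and miR-155 miRNAs, which are known for their response to the inflammatory transcription factor NF-kB, were followed in HCT116 cells sorted by the surface marker CD44v6. They were chosen by name from the table of raw reads per mature miRNA. All 4 named entries were present among 2026 in the table: hsa-miR-146a-5p, hsa-miR-146b-5p, hsa-miR-146b-3p and hsa-miR-155-5p, written below without the species prefix. HCT116 is an established line of human colorectal carcinoma cells. They were grown as spheroids in serum-free medium with basic fibroblast growth factor, epidermal growth factor, B27 and N2 in low-attachment flasks. They were stained with an antibody against CD44v6, a variant of the hyaluronan receptor CD44 made by alternative splicing, and, per the labels' protocols, live cells were sorted into CD44v6+ and CD44v6− cells, named here CD44v6-positive and CD44v6-negative. The labels list 8 sequencing entries that carry 4 combined identities, and each data column holds 1 identity, so there were 2 samples per group. All samples come from 1 cell line and the same spheroid culture condition, the labels do not say whether samples 1 and 2 came from separate cultures, and p-values therefore rest on a spread between samples that may be technical only.

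NF-kB is held in the cytoplasm until signals from Toll-like or cytokine receptors release it, and it then switches on genes of inflammation and survival. Among these are the genes of miR-146a and miR-155. miR-146a and miR-146b repress the adaptor proteins IRAK1 and TRAF6, which carry the receptor signal to NF-kB, so they are known as a negative feedback. miR-155, processed from the transcript of MIR155HG (also called BIC), represses among others SOCS1 and SHIP1, which restrain immune signalling, and is best known from lymphocytes and macrophages. Each hairpin precursor can give a 5p and a 3p strand, of which usually 1 is kept in the silencing complex.

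The mature sequences are shown because the seed, bases 2 to 8, decides most targets, and because the miR-146 guide strands differ so little that their reads could be confused. They are RefSeq sequences on build GRCh38.p14, matched by name for all 4 members, with the seed in capitals.
miR-146a-5p: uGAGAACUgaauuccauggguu
miR-146b-5p: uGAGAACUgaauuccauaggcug
miR-146b-3p: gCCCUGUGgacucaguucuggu
miR-155-5p: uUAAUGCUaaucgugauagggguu
miR-146a-5p and miR-146b-5p share the seed GAGAACU and their first 17 bases. Counted from the 5′ end of miR-146a-5p, they differ by the substitutions G18A and U21C, and miR-146b-5p has 1 base more. In the RefSeq table the only other miRNA with this seed was miR-7153-5p, which was not among the counted entries, and no other miRNA had the seed of miR-146b-3p or of miR-155-5p.

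The members come from 3 hairpins on separate chromosomes of GRCh38, the build named in the submitters' processing notes. miR-146a-5p lies at chr5:160485372-160485393 on the plus strand, in hairpin MIR146A, which GENCODE release 29 places in an exon of the noncoding gene MIR3142HG. miR-146b-5p at chr10:102436520-102436542 and miR-146b-3p at chr10:102436557-102436578, both on the plus strand, are the arms of MIR146B. That hairpin overlaps no other annotated gene, and the nearest is CUEDC2, 3851 bases away on the minus strand. miR-155-5p at chr21:25573983-25574006, plus strand, lies in MIR155, in an exon of the noncoding gene MIR155HG.

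Depth limits what these libraries show for rare miRNAs. Totals were 7880631 and 4592278 reads for the CD44v6-negative samples and 919802 and 154481 for the CD44v6-positive samples, a 51.0-fold span. Of the 2026 entries, 1510 had a read and 570 were tested with edgeR's quasi-likelihood test, of which 0 (0%) passed a Benjamini-Hochberg adjusted p under 0.05. At an unadjusted p under 0.05 there were 174 (30.5%). DESeq2 called 52 of 590 with an adjusted p (8.81%) and limma-voom 4 of 570 (0.702%). All 4 members were among those tested, and by edgeR, DESeq2 and limma-voom none of them passed. Levels are given as CPM, reads per 1000000 reads, scaled by the trimmed mean of M-values (TMM) and not divided by length, the members being 22 to 24 bases long. Log2 fold changes are CD44v6-positive minus CD44v6-negative. Intervals beside single samples are exact 95% Poisson or Clopper-Pearson limits and cover counting error only, since PCR copies are not independent molecules.

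miR-146b-5p, the guide strand of MIR146B, was by far the most abundant member and the only one with a lower level in CD44v6-positive cells. CD44v6-negative samples 1 and 2 had 9833 and 3876 reads, which is 1881 and 703 CPM. CD44v6-positive samples 1 and 2 had 347 and 82 reads, which is 374 CPM (336 to 416) and 427 CPM (340 to 530). The CD44v6-positive samples lay close together and below both CD44v6-negative samples, which themselves stood far apart. The group means were 401 ± 37.4 CPM for CD44v6-positive and 1292 ± 833 CPM for CD44v6-negative cells (SD, n = 2).

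The log2 fold change of miR-146b-5p was -1.69 ± 0.61 (SE), and it did not pass (edgeR adjusted p = 0.135). Groups that do not overlap in this direction were found for 34.6% of all tested miRNAs, so the separation is a common one in these data. Over all tested miRNAs the median was -0.31, and 107 tested miRNAs had a lower value than miR-146b-5p. Without scaling by TMM, at 1248 and 844 CPM against 377 and 531 CPM, the order of the groups was the same. Upper quartile and total count scaling raised the median of all tested miRNAs by 0.34 and 0.31 on the log2 scale, and miR-146b-5p was then at -1.37 and -1.21. The size leaned on CD44v6-negative sample 1, whose TMM factor was 0.663: without that sample the log2 fold change was -0.74 (edgeR adjusted p = 0.623). In bulk samples, fewer cells that make a miRNA and less of it per cell cannot be told apart.

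**Figure D1:**
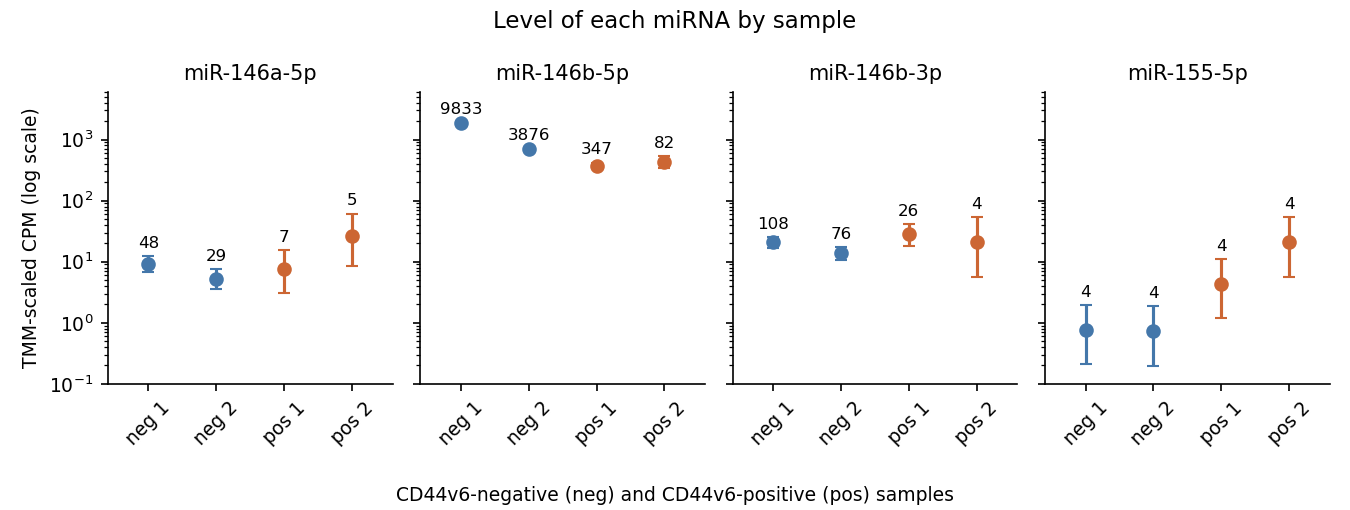
TMM-scaled CPM (log axis) of the 4 miRNAs in each CD44v6-negative (neg, blue) and CD44v6-positive (pos, orange) sample, with exact 95% Poisson intervals for counting error and the number of reads above each point. miR-146b-5p lies between 374 and 1881 CPM, the other members at 28.1 CPM or less, and miR-155-5p has 4 reads in every sample.

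miR-146b-3p, the passenger strand of the same hairpin, did not follow its guide strand downward. It was at 20.7 and 13.8 CPM in CD44v6-negative samples 1 and 2 (108 and 76 reads). CD44v6-positive samples 1 and 2 were at 28.1 CPM (26 reads, 18.3 to 41.1) and 20.8 CPM (4 reads, 5.68 to 53.4). The groups were just apart, since CD44v6-negative sample 1 and CD44v6-positive sample 2 had nearly the same level, and groups not overlapping in this direction were found for 24.9% of tested miRNAs. The log2 fold change was 0.55 ± 0.64 (SE), less than its standard error (edgeR adjusted p = 0.595). It was 0.16 without CD44v6-positive sample 1, and 0.94 and 0.91 without CD44v6-negative sample 1 and CD44v6-positive sample 2.

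Within a sample the ratio of the arms does not depend on scaling. The 3p strand made up 1.09% (0.892 to 1.31) and 1.92% (1.52 to 2.40) of the miR-146b reads in CD44v6-negative samples 1 and 2. It made up 6.97% (4.60 to 10.0, 26 of 373 reads) and 4.65% (1.28 to 11.5, 4 of 86 reads) in CD44v6-positive samples 1 and 2. Both CD44v6-positive values were above both CD44v6-negative ones, but the interval of CD44v6-positive sample 2 reached down over those of the CD44v6-negative samples. The means were 5.81% ± 1.64 and 1.505% ± 0.592 (SD, n = 2), a difference of 4.31 percentage points (two-sided exact permutation p = 0.333, the smallest that 2 against 2 allows).

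That shift was no feature of MIR146B alone. Of 134 hairpins with both arms tested, 41 (30.6%) had a 3p share that was higher in both CD44v6-positive samples, and 46 (34.3%) one that was lower in both. The share of the less abundant arm, which is the 3p arm for miR-146b, was higher in both CD44v6-positive samples for 40 hairpins (29.9%). The arm shares of miR-146b thus sit within what many hairpins showed.

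miR-146a-5p, whose gene is the textbook NF-kB target of the pair, was rare in these cells. Its reads were 48 and 29 in CD44v6-negative samples 1 and 2, or 9.18 CPM (6.77 to 12.2) and 5.26 CPM (3.52 to 7.55). CD44v6-positive samples 1 and 2 had 7 and 5 reads, or 7.55 CPM (3.04 to 15.6) and 26.1 CPM (8.46 to 60.8). CD44v6-positive sample 1 fell between the CD44v6-negative samples and only the shallow CD44v6-positive sample 2 stood above them, so the groups overlapped. The levels were 16.8 ± 13.1 against 7.22 ± 2.78 CPM (SD, n = 2). The log2 fold change was 0.99 ± 0.90 (SE; edgeR adjusted p = 0.505). Without CD44v6-positive sample 2 it was 0.27, without CD44v6-positive sample 1 it was 1.73, and without CD44v6-negative sample 1 it was 1.53.

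Of the reads that carry the shared miR-146 seed, miR-146a-5p gave few in every sample. Its share was 0.486% (0.358 to 0.644) and 0.743% (0.498 to 1.06) in CD44v6-negative samples 1 and 2. In CD44v6-positive samples 1 and 2 it was 1.98% (0.799 to 4.03) and 5.75% (1.89 to 12.9), from 7 of 354 and 5 of 87 reads. The CD44v6-positive shares were the higher ones, with a mean of 3.86% ± 2.67 against 0.614% ± 0.182 (SD, n = 2; two-sided exact permutation p = 0.333), and the interval of CD44v6-positive sample 1 overlapped that of CD44v6-negative sample 2. The difference was 3.25 percentage points, and it was 1.36 without CD44v6-positive sample 2 and 5.13 without CD44v6-positive sample 1.

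In each sample miR-146b-5p thus outnumbered miR-146a-5p, by 205 and 134 reads to 1 in CD44v6-negative samples 1 and 2 and by 49.6 and 16.4 to 1 in CD44v6-positive samples 1 and 2. When the 5p rows were summed to 1 row, as for miRNAs of 1 seed family, the log2 fold change was -1.64 ± 0.61 (SE; edgeR adjusted p = 0.141), that is, the value of miR-146b-5p and not that of miR-146a-5p. A read that ends before base 18 fits both sequences, and how such reads were assigned is not stated in the labels.

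**Figure D2:**
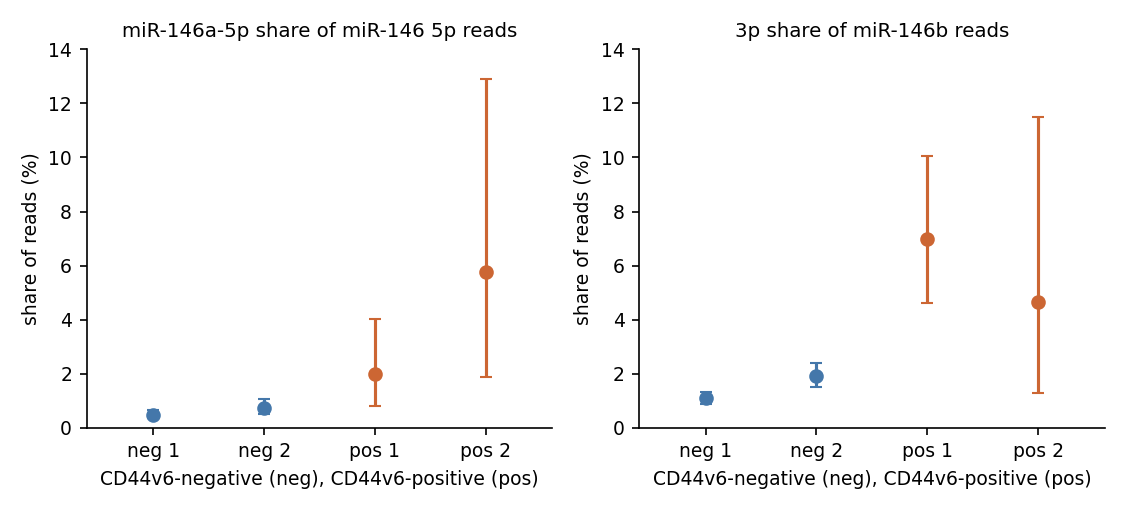
Left, share of miR-146a-5p among the reads of miR-146a-5p and miR-146b-5p; right, share of the 3p arm among miR-146b reads, both in percent, for each CD44v6-negative (neg, blue) and CD44v6-positive (pos, orange) sample with exact 95% Clopper-Pearson intervals. The CD44v6-positive points, at 1.98% and 5.75% and at 6.97% and 4.65%, lie above the CD44v6-negative points, with wide intervals from few reads.

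miR-155-5p, the guide strand of MIR155, was near the limit of detection: it had 4 reads in each of the 4 samples. At the unequal depths these are 0.765 CPM (0.209 to 1.96) and 0.725 CPM (0.198 to 1.86) in CD44v6-negative samples 1 and 2. In CD44v6-positive samples 1 and 2 they are 4.32 CPM (1.18 to 11.1) and 20.8 CPM (5.68 to 53.4). The CD44v6-positive levels were the higher ones, but as ratios they differed almost as much from each other as CD44v6-positive sample 1 did from the CD44v6-negative samples. At the TMM-scaled level pooled over the CD44v6-negative samples, 0.690 and 0.143 reads were expected in CD44v6-positive samples 1 and 2. Each had 4 reads. These expected values rest on 8 pooled reads and were given no interval. miR-155-5p was the only entry of the table with the same count above 0 in all 4 samples.

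The fitted log2 fold change of miR-155-5p was 3.66 ± 1.08 (SE), the 17th highest of 570, and it did not pass (edgeR adjusted p = 0.117). The group levels were 12.6 ± 11.7 and 0.745 ± 0.0283 CPM (SD, n = 2). The low-count filter corresponds to 3.63 CPM before TMM scaling in 2 samples, and miR-155-5p met it only through the CD44v6-positive samples. It shared this with 34 other miRNAs, and all 35 had a positive log2 fold change, as such a filter requires. miR-155-5p was thus tested because of its CD44v6-positive reads, and its excess over the expected reads is no separate evidence of a higher level. Its 16 reads also put it among 25 tested miRNAs with at most 30 reads in all, of which 24 had a positive log2 fold change, with a median of 2.46. So few reads cannot meet the filter through the CD44v6-negative samples alone. The direction of these miRNAs is therefore largely set by the filter and is no separate evidence either. With any 1 sample left out it had 12 reads and was no longer tested. With no filter the leave-one-out values ran from 2.34 to 4.14 (edgeR adjusted p from 0.0728 to 0.590).

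**Figure D3:**
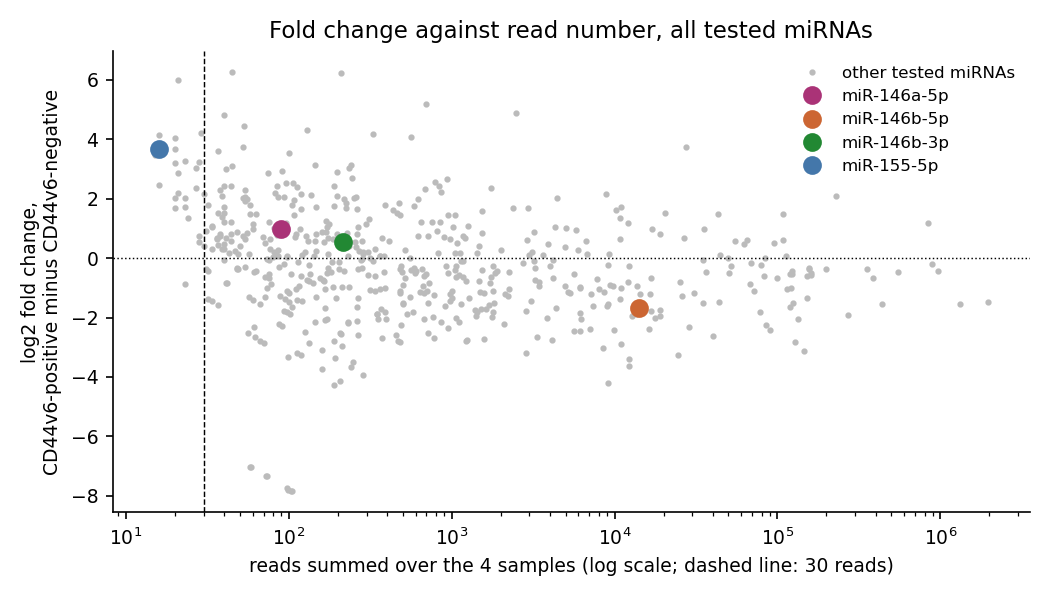
Log2 fold change (CD44v6-positive minus CD44v6-negative) against the reads summed over the 4 samples (log axis) for the 570 tested miRNAs, with the 4 members as large coloured points. miR-155-5p, at 16 reads, lies left of the dashed line at 30 reads, where 24 of 25 miRNAs have a positive value. miRNAs with so few reads cannot meet the filter through the CD44v6-negative samples alone. miR-146b-5p is the only member below 0.

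The passenger strands miR-146a-3p and miR-155-3p had 0 reads in every sample. A count of 0 allows up to 3 reads, or 0.574 and 0.544 CPM in CD44v6-negative samples 1 and 2 and 3.24 and 15.6 CPM in CD44v6-positive samples 1 and 2. In the CD44v6-positive samples they could therefore not have been seen at a level as low as that of miR-155-5p in CD44v6-negative cells.

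The members kept a clear order in each sample only at the top. miR-146b-5p ranked 71st and 97th among all entries in CD44v6-negative samples 1 and 2 and 105th and 98th in CD44v6-positive samples 1 and 2. In CD44v6-negative samples miR-146b-3p, miR-146a-5p and miR-155-5p followed in that order, with Poisson intervals that did not overlap between neighbours in either sample. In CD44v6-positive sample 1 the intervals of miR-146b-3p and miR-146a-5p did not overlap and those of miR-146a-5p and miR-155-5p did. In CD44v6-positive sample 2 these 3 members had 4 or 5 reads each and their order was not detectable.

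**Figure D4:**
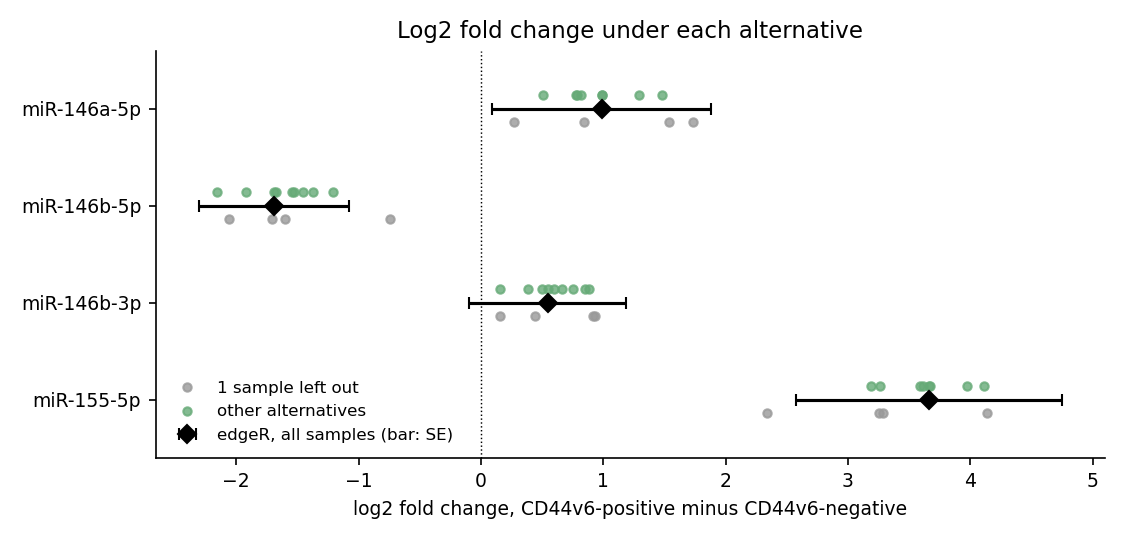
Log2 fold change (CD44v6-positive minus CD44v6-negative) of each member with all samples (black diamond, bar: SE), with 1 sample left out (grey) and under the other alternatives (green), except the summing of the 5p rows; for miR-155-5p the grey points have no filter. miR-146b-5p stays below 0, from -2.16 to -0.74, and the other members stay above 0.

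Markers were read in the same libraries. All 8 epithelial and intestinal miRNAs on the list, such as the miR-200 family and miR-192, were read in every sample, and they summed to 33838 and 20686 CPM in CD44v6-negative and 17813 and 14076 CPM in CD44v6-positive samples. miR-146a-5p and miR-155-5p are abundant in blood cells, so 8 blood markers were read beside them, of which 5 were tested and 0 passed with edgeR. Their sum was 3139 and 1413 CPM in CD44v6-negative and 3785 and 3747 CPM in CD44v6-positive samples, mostly from miR-486-5p. The red cell miRNA miR-451a had 130 and 42 reads (24.9 and 7.62 CPM) in CD44v6-negative samples 1 and 2, 14 reads in CD44v6-positive sample 1 (15.1 CPM) and 54 in CD44v6-positive sample 2 (281 CPM). CD44v6-positive sample 2, where miR-146a-5p and miR-155-5p had their highest levels, was thus also the highest in miR-451a. Those levels of miR-146a-5p and miR-155-5p rest on 5 and 4 reads in the shallowest library, where 1 read is 5.21 CPM. How many of all tested miRNAs were highest in that sample was not counted. The leukocyte marker miR-142-5p was at 114 and 90.8 CPM in CD44v6-negative and at 60.4 and 276 CPM (53 reads) in CD44v6-positive samples, again highest in CD44v6-positive sample 2. Its other arm miR-142-3p was at 15.1 and 20.3 CPM in CD44v6-negative and at 9.71 and 20.8 CPM in CD44v6-positive samples. miR-223-3p had 11 and 4 reads (2.10 and 0.725 CPM) in CD44v6-negative and 3 and 1 (3.24 and 5.21 CPM) in CD44v6-positive samples. miR-144-3p and miR-144-5p were also highest in CD44v6-positive sample 2, at 36.5 and 10.4 CPM from 7 and 2 reads. miR-486-5p was highest in CD44v6-positive sample 1, at 3688 CPM. miR-150-5p was at 5.40 CPM (5 reads) and 5.21 CPM (1 read) in CD44v6-positive samples 1 and 2, too few reads to order them. No blood marker was at 0 in any sample.

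Some markers of other kinds were also highest in CD44v6-positive sample 2. The 6 stromal and muscle entries matched by name summed to 1274 and 865 CPM in CD44v6-negative and to 857 and 5071 CPM in CD44v6-positive samples. Most came from miR-143-3p, at 4972 CPM in CD44v6-positive sample 2. The listed miR-199a-3p is counted in a row shared with miR-199b-3p and is not in these sums. That row was at 66.6 and 51.1 CPM in CD44v6-negative and at 68.0 and 135.5 CPM in CD44v6-positive samples. The muscle markers miR-1-3p and miR-133a-3p were at 0 in CD44v6-negative sample 2 and CD44v6-positive sample 2. In CD44v6-positive sample 1 they were at 1.08 and 5.40 CPM. A count of 0 in CD44v6-positive sample 2 allows up to 15.6 CPM, so a lower level there could not be shown. The intestinal miR-192-5p reached 4560 CPM in CD44v6-positive sample 2, against 1032 to 1888 CPM in the other samples. On the same list miR-194-5p and miR-215-5p were also highest there, at 235 and 250 CPM. The rest of that list, miR-200a-3p, miR-200b-3p, miR-200c-3p, miR-141-3p and miR-429, was lowest in CD44v6-positive sample 2. For instance, miR-141-3p was at 1173 CPM there, against 1940 to 11210 CPM in the other samples. The stromal miR-145-5p was lowest in that sample, at 57.3 CPM against 100.4 to 197 CPM. The endothelial arms miR-126-5p and miR-126-3p went the other way, with sums of 4178 and 2700 CPM against 1394 and 1100 CPM. Whether RNA of other cell types was present, or added to the levels of miR-146a-5p and miR-155-5p, was not tested.

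Other miRNAs reported to be induced by NF-kB went both ways. Of 18 entries, counting both arms, all had a read and 16 were tested, and with edgeR 0 passed. Log2 fold changes were positive for 6 and negative for 10, with a median of -0.64 against -0.31 over all tested miRNAs. The list's median was 0.33 without CD44v6-negative sample 1, over the 13 of its miRNAs tested in that fit. The groups did not overlap for 8 of them, 1 higher and 7 lower, where 59.5% of all tested miRNAs did not overlap. miR-21-5p, a strand raised in many tumours and the most abundant, was at 41606 ± 16329 against 120213 ± 86450 CPM (log2 fold change -1.53 ± 0.64). As for miR-146b-5p, CD44v6-negative sample 1 stood highest, at 181342 CPM against 59083 CPM in CD44v6-negative sample 2. Without CD44v6-negative sample 1 the log2 fold change of miR-21-5p was -0.44, and without CD44v6-negative sample 2 it was -1.96. The other arm, miR-21-3p, differed little within the groups, at 12331 and 11352 CPM in CD44v6-negative and 1703 and 1657 CPM in CD44v6-positive samples. Its log2 fold change was -2.82 ± 0.43 (SE; edgeR adjusted p = 0.0787).

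The clustered miR-221-3p and miR-222-3p share a seed and repress the cell cycle inhibitor p27. miR-222-3p was higher in both CD44v6-positive samples, at 21239 ± 5015 against 7682 ± 2919 CPM (1.47 ± 0.48, edgeR adjusted p = 0.125). Groups not overlapping in this direction were found for 24.9% of all tested miRNAs. miR-221-3p had a log2 fold change of -0.01 ± 0.86, which turned positive, at 0.06 to 0.38, under the 3 other scalings, and miR-125b-5p one of 0.61 ± 0.79. For miR-221-3p and miR-125b-5p the groups overlapped.

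Of 7 miRNAs reported to repress genes of the NF-kB pathway, 6 were tested and with edgeR 0 passed. Log2 fold changes were positive for 2 and negative for 4, with a median of -0.44 against -0.31 over all tested miRNAs. Without CD44v6-positive sample 1, where 7 were tested, the list's median was 0.22. The groups did not overlap, with higher CD44v6-positive values for 1 and lower ones for 3. Over all tested miRNAs these shares were 24.9% and 34.6%, so such separations are common in these data. miR-10a-5p was at 13468 ± 2185 against 39645 ± 28762 CPM (-1.56 ± 0.62). Without CD44v6-negative sample 1 it was -0.45 (edgeR adjusted p = 0.730), and without CD44v6-negative sample 2 it was -1.98 (edgeR adjusted p = 0.0143). The related miR-16-5p (-0.54 ± 0.42) and miR-15a-5p (-0.82 ± 0.52), which share a seed, were lower in both CD44v6-positive samples, and without CD44v6-negative sample 2 their log2 fold changes were -0.10 and -0.34. miR-181b-5p, which represses importin alpha 3 and so the nuclear entry of NF-kB, was higher in both, at 893 ± 336 against 460 ± 66.6 CPM (0.95 ± 0.51, edgeR adjusted p = 0.254).

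**Figure D5:**
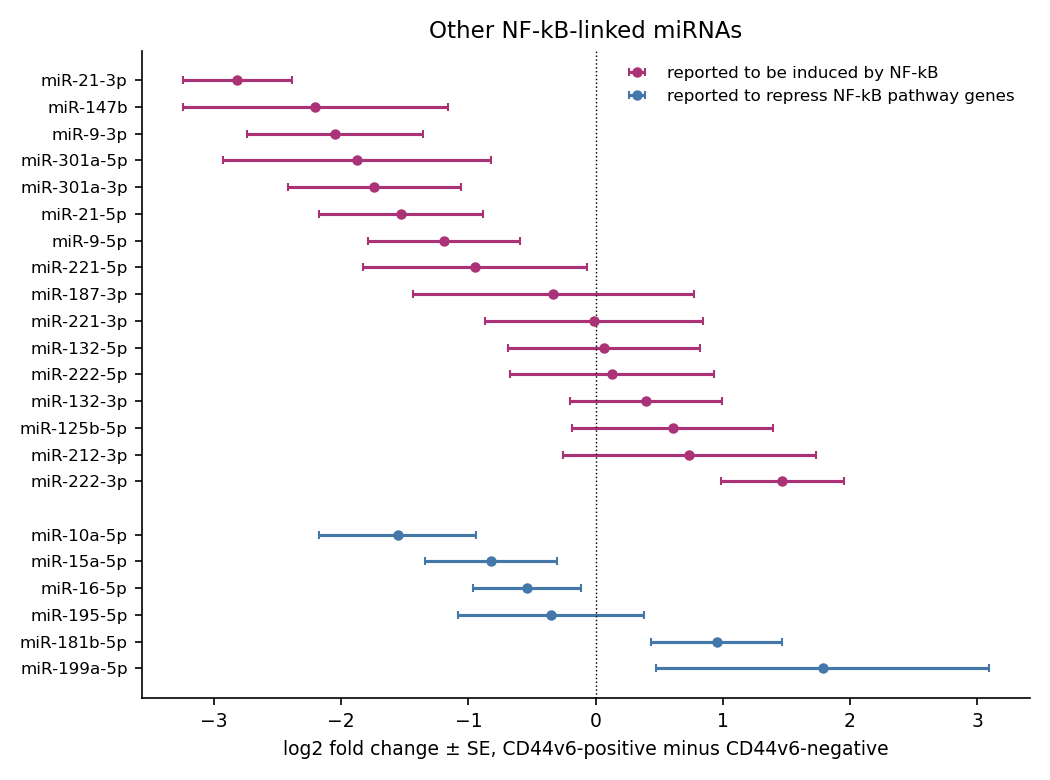
Log2 fold change ± SE (CD44v6-positive minus CD44v6-negative) of the tested miRNAs reported to be induced by NF-kB (16, purple) and of those reported to repress NF-kB pathway genes (6, blue). Values lie on both sides of 0 in both lists, with medians of -0.64 and -0.44.

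The tested miRNAs whose pattern over the 4 samples was most like that of a member were found by the root mean square difference of log2 CPM, each centred on its own mean, among 569. With 4 samples this is a description only. For miR-146b-5p they were miR-10a-5p (0.22), miR-10b-5p (0.23) and miR-193a-3p (0.24), against a median of 1.22 over all, and their log2 fold changes were -1.56, -1.91 and -1.90. For miR-146b-3p they were miR-28-3p (0.07), miR-361-3p (0.09) and the lymphocyte miRNA miR-150-5p (0.14), with a median of 0.99 over all. The pattern of miR-150-5p rests on few reads, 44 in all, with 5 and 1 in CD44v6-positive samples 1 and 2. For miR-146a-5p they were miR-642a-3p (0.20), the intestinal miR-194-5p (0.22) and miR-22-5p (0.24), with a median of 1.15 over all. The nearest to miR-155-5p were miR-6812-3p (0.19), miR-423-5p (0.32) and miR-6847-5p (0.41), with a median of 1.84 over all. Of these, miR-6812-3p and miR-6847-5p had 16 and 28 reads in all, as few as miR-155-5p or nearly so, whereas miR-423-5p had 27469.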

How the data were processed

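Total RNA of sorted HCT116 cells was made into libraries with a Truseq Small RNA Kit, per the labels' protocols. The authors deposited raw counts of reads per mature miRNA, and the same counts as a normalized signal, which equalled the deposited counts divided by 1 size factor per sample and served only for that check. The submitters' processing notes list Bowtie 0.12.9, cutadapt 1.10, CASAVA 1.8.2 and DESeq2 and the build GRCh38. What each did, which miRNA annotation was used and how reads mapping to several places were handled is not given in the sources used here. Entries of 1 combined identity were counted as 1 sample.

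The whole table was fitted with edgeR 4.0.16 in R 4.3.3 (glmQLFit, glmQLFTest, TMM, filterByExpr with minimum count 10 and minimum total 15), with Benjamini-Hochberg adjustment over 570 miRNAs and a threshold of 0.05. The SE is the absolute log2 fold change over the square root of F. Alternatives were other scalings and filters, DESeq2 1.42.0, limma-voom (limma 3.58.1), robust estimation, a replicate block, summed 5p rows and each sample left out. Shares used exact tests in SciPy 1.17.1. The fit was tested on simulated data. Of each NF-kB list the 4 most abundant tested miRNAs were named, and miR-21-3p was added after its values were seen. Markers were chosen for mention after their values were seen. Added were 3 nearest patterns per member (log2 CPM, prior count 2). Members and lists were chosen with earlier results of these data known. Sequences came from RefSeq and positions of hairpins from GENCODE 29.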

Additional observations from a re-analysis of the deposited data

How the results depend on the processing

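The direction of each member was the same under every alternative in which it was tested as its own row. The summed row of miR-146a-5p and miR-146b-5p, mostly reads of miR-146b-5p, had a log2 fold change of -1.64. miR-155-5p was not tested with the 10 CPM filter or, under the count filter, with any sample left out, and miR-146a-5p not with the 10 CPM filter. The leave-one-out fits without the filter were chosen after seeing the data. With the replicate number as a block, which leaves 1 residual degree of freedom, miR-146b-5p (-1.54, edgeR adjusted p = 0.00029) and miR-155-5p (3.59, edgeR adjusted p = 0.0067) were among 228 of 570 miRNAs that passed (40%). The labels give no shared source for same-numbered samples, and the deviations of such samples from their group means correlated across miRNAs at 0.375. The count of miRNAs past the threshold was 0 with all samples, 48 with total count scaling, 77 with no filter, 52 with DESeq2, 4 with limma-voom and 26 to 55 with 1 sample left out, where the lone sample of a group is assumed to vary like the others.

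With 1 sample left out, miR-146a-5p ran from 0.27 to 1.73, miR-146b-5p from -2.05 to -0.74, miR-146b-3p from 0.16 to 0.94 and miR-155-5p from 2.34 to 4.14. The difference in the miR-146a-5p share ran from 1.36 to 5.13 and that in the 3p share from 3.15 to 5.47 percentage points. The median of the NF-kB-induced list ran from -2.21 to 0.33, over the 12 to 17 of its miRNAs tested in each fit. That of the pathway repressors, over 6 or 7, ran from -0.36 to 0.22, with -0.12 under upper quartile scaling and -0.79 with no filter. These medians are thus over differing sets, and they were not set beside the median of all tested miRNAs in the leave-one-out fits. miR-221-3p, near 0 with all samples, turned positive with upper quartile scaling (0.35), DESeq2 size factors in edgeR (0.064), total count scaling (0.38) and the 10 CPM filter (0.18). Over the leave-one-out fits its values were -1.70 to 1.06, and those of miR-125b-5p -0.96 to 1.503. Of 237 alternative values for 19 named miRNAs that are not members, 7 changed sign and 24 passed the threshold where the value with all samples had not. The cause of these moves was not tested. Depth limits miR-155-5p most, with 4 reads per sample.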
